A study of Mus musculus with 116 samples.

Results

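Ligase IV add-back was examined in 12 libraries of RAG-initiated joining, of 116 samples in the series and 42 libraries of this kind of break. The members were chosen by their titles: Lig4-/- cells with Lig4 added back (Lig4-/- +Lig4) against Lig4-/- cells, in clone A1 and in clone C, with 3 libraries in each group. Lig4 encodes DNA ligase IV, and all 12 libraries came from v-Abl-transformed mouse pro-B cells, early B-lineage cells made to grow without limit by the v-Abl oncogene. Every group, the controls included, carried the Emu-Bcl2 transgene and was arrested in G1 by a 96 h treatment with 3 µM STI-571, which blocks the v-Abl kinase. The A1 and C groups each rest on 1 clone, and the labels do not say how Lig4 was added back or how strongly it was expressed. A further 3 WT libraries of clone A, also carrying Emu-Bcl2 and arrested in the same way, were used as a reference for clone A1. The labels do not say how clones A and A1 are related, and they were set side by side because their names share a letter. No WT library of clone C was used here.

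In arrested cells of this kind the RAG recombinase cuts between the Jk and Vk segments of the immunoglobulin kappa light chain locus and the recombination signal sequences (RSS) beside them. Each cut leaves a coding end, which is a hairpin that must be opened before joining, and a blunt signal end. Ligase IV seals both kinds of join in classical non-homologous end joining, and a slower alternative route, which often uses a few matching bases (microhomology), joins ends when it is missing. A Vk segment in the same orientation as Jk1 is joined by deleting the DNA between them, and one in the opposite orientation by inverting it.

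The bait was the coding end of Igkj1, the Jk1 segment (chr6:70722562-70722599, mm10, read on the minus strand). The 38 bases of Igkj1 as the reads show them, ending at the cut, are given because every loss at this end is counted back from their last letter.

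Igkj1 bait end: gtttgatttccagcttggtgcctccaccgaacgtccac

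The joins below show what ligase IV restored and what was made without it. Each has 25 bases of Jk1 side and 25 bases of Vk side, and capitals mark bases shared by both ends (an overlap) or added between them (an insertion).

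Igkv12-44, restored, 1 base added to a whole Jk1 end: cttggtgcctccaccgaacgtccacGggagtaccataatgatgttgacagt
Igkv12-44, restored, 2 bases added: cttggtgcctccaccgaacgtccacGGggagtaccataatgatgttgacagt
Igkv16-104, restored, overlap of 2 bases: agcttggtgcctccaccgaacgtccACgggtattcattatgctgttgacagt
Igkv6-32, Lig4-/- A1, overlap of 3 bases: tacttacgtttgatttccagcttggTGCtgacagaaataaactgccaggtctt
Igkv3-12, Lig4-/- A1, overlap of 4 bases: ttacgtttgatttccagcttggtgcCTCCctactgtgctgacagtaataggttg
Igkv2-112, Lig4-/- C, overlap of 1 base: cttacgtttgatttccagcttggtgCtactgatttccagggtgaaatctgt
Igkv19-93, Lig4-/- A1, opposite side of the Vk cut: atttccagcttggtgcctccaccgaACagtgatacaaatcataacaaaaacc
Igkv3-4, Lig4-/- A1, opposite side of the Vk cut: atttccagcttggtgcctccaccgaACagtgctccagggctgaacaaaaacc
Igkv4-50, Lig4-/- +Lig4 A1, opposite side of the Vk cut: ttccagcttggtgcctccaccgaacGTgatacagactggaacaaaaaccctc

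The 3 restored coding-orientation examples keep the whole Jk1 end. The Lig4-/- examples and the restored Igkv4-50 join, which has lost 4 bases, lack its last bases. The last 3 sequences run from Jk1 into the Vk RSS and not into the Vk coding sequence, and they are described with the orientation of the joins.

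Adding Lig4 back raised the number of Vk joins in both clones. Clone A1 had 11309, 10577 and 13708 joins with Lig4 and 17, 32 and 65 without it. Clone C had 35059, 20882 and 25600 joins with Lig4 and 16, 3 and 46 without it. All 6 restored libraries lay above all 6 Lig4-/- libraries. A list holds 1 row per read, and the authors set each list to a number of raw reads, 167151 for clones A1 and A and 377068 for clone C. Scaled to 100000 raw reads, restored A1 had 7098 ± 980 joins (SD, n = 3) and restored C 7208 ± 1915, against 22.7 ± 14.7 in Lig4-/- A1 and 5.75 ± 5.85 in Lig4-/- C. On the log2 scale, with 0.5 joins added, the rise averaged 9.68 (8.46 in A1 and 10.90 in C; two-sided exact permutation test within clones p = 0.005, the smallest it allows, adjusted p = 0.0283 over 34 tests). The rise was not shown to differ between the clones (exact permutation p = 0.63).

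**Figure D1:**
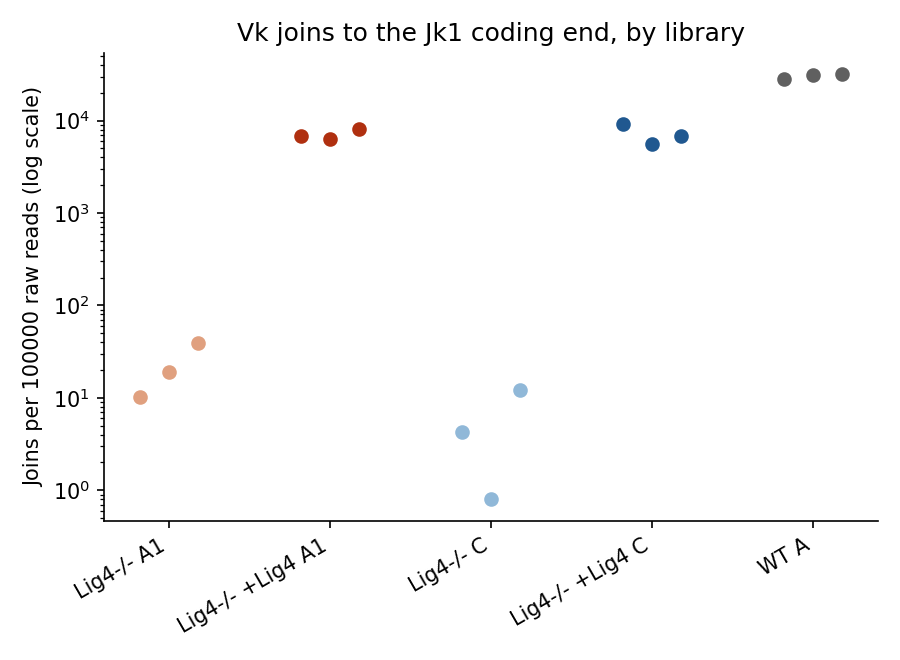
Joins of Vk segments to the Jk1 coding end per 100000 raw reads, on a log axis, with 1 point per library and 3 libraries per group. The restored libraries lie between 5538 and 9298, the Lig4-/- libraries between 0.796 and 38.9, and the WT A libraries between 28196 and 31752.

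Counted in reads, restored A1 stayed below WT A, which had 47130, 52088 and 53074 joins or 30370 ± 1906 per 100000 raw reads. The groups did not overlap in this count, and the log2 difference was -2.10 (exact permutation p = 0.1, the smallest p for 3 against 3, adjusted p = 0.189). Counted as distinct joins the groups overlapped, with 6496, 6236 and 7682 in restored A1 and 17859, 5999 and 13627 in WT A. Sequencing runs, read from the read names, moved with the genotype: the restored libraries shared no run with any other group, and the effects of genotype and of run cannot be told apart. The libraries of a group are separate by their labels, which do not say whether they came from separate cultures. Each p therefore measures only spread between these libraries, which for segment usage is largely shared across segments. Intervals given here cover counting error only, since several reads may be copies of a single molecule.

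Short insertions returned with Lig4. In restored A1, 54.4%, 51.4% and 48.9% of joins had at least 1 added base, and in restored C 55.6%, 52.3% and 52.8%. Lig4-/- A1 libraries had 0%, 21.9% and 7.69%, and Lig4-/- C libraries 12.5%, 0% and 4.35%. These shares rest on 12 joins with an insertion in Lig4-/- A1 and 4 in Lig4-/- C; the limit that a count of 0 allows (3 joins) is 17.6% in the first A1 library and runs from 4.62% to 100% over the Lig4-/- libraries. The insertion share rose by an average of 44.8 percentage points (exact permutation p = 0.005, adjusted p = 0.0283), with no overlap in either clone.

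Restored insertions were mostly 1 or 2 bases. In restored A1, 38.8% ± 1.9 (SD, n = 3) were 1 base, 35.0% ± 1.3 were 2 bases, 12.8% ± 0.11 were 3 bases and 3.70% ± 0.60 were over 5 bases. Restored C gave 36.0% ± 1.4, 37.6% ± 0.33, 12.6% ± 0.40 and 4.03% ± 0.41 for the same lengths. The mean length was 2.21 ± 0.063 bases in restored A1 and 2.26 ± 0.050 in restored C. Single added bases were less frequent in WT A (32.7% ± 0.31), and its mean length was 2.41 ± 0.078 bases. WT A also had an insertion in more of its joins, 61.9% ± 0.44 against 51.5% ± 2.75 in restored A1; neither the share nor the length overlapped (exact permutation p = 0.1 for both, adjusted p = 0.189). The mean length of the few Lig4-/- insertions was 2.43 and 2.00 bases in the 2 A1 libraries that had any, and 11.5 and 4.00 bases in the 2 C libraries. That difference from the restored libraries (-2.75 bases) did not pass (exact permutation p = 0.05, adjusted p = 0.189). It was -2.86 bases (exact permutation p = 0.025) without the third Lig4-/- A1 library and -0.874 or -4.62 bases without the first or the third Lig4-/- C library (exact permutation p = 0.125 for both).

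The added bases were rich in G on the read strand. Restored A1 had 43.4% ± 0.75 G, 18.6% ± 0.66 C, 17.2% ± 0.43 A and 20.8% ± 0.49 T among 40323 added bases. Restored C had 44.1% ± 0.26 G, 17.4% ± 0.78 C, 17.9% ± 0.25 A and 20.6% ± 0.31 T among 99687. WT A had 42.5% ± 0.55 G. The G and C share was 62.0% in restored A1 and 61.1% in WT A (difference 0.953 percentage points, no overlap, exact permutation p = 0.1, adjusted p = 0.189). Terminal transferase, the template-free polymerase of immature lymphocytes, is known to favour G, and opened hairpins leave short palindromic (P) bases. The 27 added bases of Lig4-/- A1 were 5 G, 5 C, 7 A and 10 T, too few for a test.

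The leading inserts were the same in the restored clones and WT A. A single G made up 17.9% ± 0.93 of insertions in restored A1, 16.8% ± 0.64 in restored C and 15.1% ± 0.16 in WT A. GG followed, with 9.32% ± 0.65, 9.85% ± 0.26 and 9.27% ± 0.23. Single T was next, with 8.83% ± 0.31, 8.61% ± 0.47 and 7.68% ± 0.15. Restored A1 held 1073 different inserts and restored C 2014, against 8 in Lig4-/- A1 and 4 in Lig4-/- C. The Lig4-/- A1 inserts were a single A in 4 joins, GT in 2 joins, and 6 others in 1 join each, the longest of them TACTC. One Lig4-/- C join held an insert of 18 bases, the longest insert of the Lig4-/- libraries.

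Palindromic additions were present at restored ends that had lost nothing. The Jk1 read ends in ac, so its palindrome begins with G and then T. Where Jk1 had lost 0 bases, 81.0% ± 0.49 of restored A1 insertions and 80.0% ± 0.15 of restored C insertions began with G, against 80.7% ± 0.77 in WT A. Where Jk1 had lost 3 or more bases, the shares were 24.3% ± 1.8, 16.6% ± 0.88 and 16.8% ± 0.46. The full pair GT opened 30.2% ± 2.1 of restored A1 insertions of 2 or more bases at a Jk1 end with 0 bases lost, and 3.75% ± 0.54 where 3 or more were lost. On the other side, insertions of 2 or more bases ended with the palindrome of the Vk end in 35.8% ± 4.9 of restored A1 joins with 0 Vk bases lost and in 3.05% ± 0.36 with 3 or more lost. Restored C gave 31.6% ± 2.3 and 2.79% ± 0.069, and WT A 35.1% ± 4.5 and 2.91% ± 0.15. These conditional shares were set after seeing the data and carry no test.

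Coding ends had lost fewer bases in the restored joins. The Jk1 read reached the coding end in 45.3%, 43.3% and 39.5% of restored A1 joins and in 51.7%, 51.2% and 52.1% of restored C joins. Lig4-/- A1 libraries had 0%, 0% and 16.9%, and Lig4-/- C libraries 6.25%, 0% and 6.52%. The average rise was 42.2 percentage points, and the median Jk1 loss fell by 23.7 bp (exact permutation p = 0.005 and adjusted p = 0.0283 for both). Median Jk1 loss was 1, 1 and 2 bp in restored A1 and 0 bp in each restored C library. It was 13, 14 and 9 bp in Lig4-/- A1 and 17, 76 and 17 bp in Lig4-/- C. The value of 76 comes from a library whose 3 joins are reads of 1 distinct join. Without that library the fall in median Jk1 loss was 13.8 bp (exact permutation p = 0.005). Of the 65 Lig4-/- C joins, 22 were reads of 1 Igkv2-112 join with a loss of 17 bp, in 2 libraries. A further 14 were reads of 1 Igkv5-45 join with a loss of 27 bp. Losses over 20 bp made up 0.814% ± 0.25 of restored A1 joins and 0.120% ± 0.040 of restored C joins, against 47.1%, 28.1% and 13.8% in Lig4-/- A1. Lig4-/- C libraries had 25.0%, 100% and 32.6%, where 100% is the library with 3 reads of 1 distinct join.

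**Figure D2:**
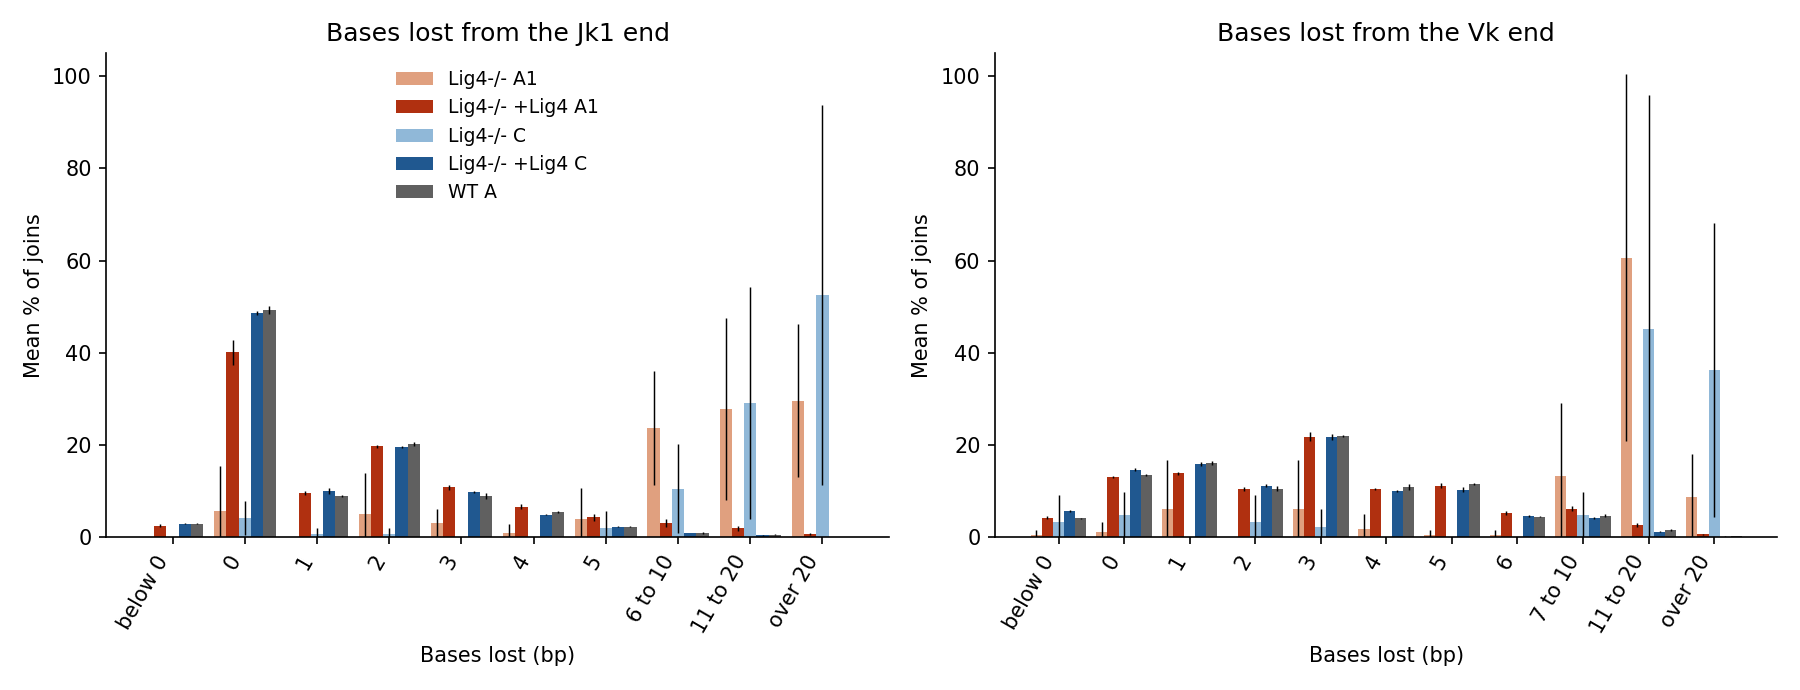
Bases lost from the Jk1 end (left) and from the Vk coding end (right), as the mean % of joins in each class over 3 libraries per group; bars show the mean, lines 1 SD (trimmed at 0), and "below 0" means the alignment ran past the end. Restored and WT A joins pile up at losses of 0 to 5 bp, and Lig4-/- joins at 6 bp and more.

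The third Lig4-/- A1 library held 11 joins with a whole Jk1 end. It shared a run with a WT A library, and 21 of its 65 joins (32.3%) had exactly the structure of a join in that WT library, 9 of the 11 among them. The second Lig4-/- A1 library also shared a run with a WT A library, and 0 of its 32 joins matched. The part of the shared run in this match was not tested. Restored libraries had most of their joins in common with WT A by the same match, 68.8% to 73.0% in A1 and 77.3% to 80.3% in C, with no run shared.

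At the Vk end, 17.2%, 17.2% and 17.4% of restored A1 joins and 20.5%, 20.1% and 20.6% of restored C joins had lost nothing. Lig4-/- A1 had 0%, 0% and 5.56%, and Lig4-/- C 20.0%, 0% and 4.44%. The average rise was 13.8 percentage points and the fall in median loss 15.1 bp (exact permutation p = 0.005, adjusted p = 0.0283 for both). The Lig4-/- C value of 20.0% is 2 of 10 joins. Neither result passed when Vk ends were assigned within 30 bp in place of 100 bp (9.89 percentage points, exact permutation p = 0.17, and -8.83 bp, p = 0.065). Restored joins had a median Vk loss of 3 bp in every library, as did WT A. A loss of exactly 3 bp was the most frequent class, with 21.8% ± 1.0 in restored A1, 21.8% ± 0.72 in restored C and 22.0% ± 0.30 in WT A.

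Restored A1 did not reach WT A at the Jk1 end. A whole Jk1 end was present in 42.7% ± 2.9 of restored A1 joins and 52.3% ± 0.97 of WT A joins, without overlap (difference -9.57 percentage points, exact permutation p = 0.1, adjusted p = 0.189). Restored C, at 51.7% ± 0.46, lay within the WT A range. The difference between the restored clones was -8.97 percentage points without overlap (exact permutation p = 0.1, outside the adjusted family). Losses of 6 to 10 bp made up 3.20% ± 0.88 of restored A1 joins, 0.974% ± 0.088 of restored C joins and 1.01% ± 0.16 of WT A joins. Both ends were whole in 4.16% ± 0.42, 6.07% ± 0.14 and 5.05% ± 0.068 of joins at a Vk coding end.

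Microhomology was less frequent in every restored A1 library than in every Lig4-/- A1 library. Overlaps of at least 2 bp were in 88.2%, 53.1% and 53.8% of Lig4-/- A1 joins and 2.58%, 3.50% and 4.38% of restored A1 joins, with no overlap between groups. Lig4-/- C libraries had 43.8%, 0% and 17.4%, and restored C libraries 1.33%, 1.29% and 1.30%. Here the library with 3 reads of 1 distinct join, which has no overlap of bases, makes the groups overlap. The average difference was -40.3 percentage points (exact permutation p = 0.02, adjusted p = 0.0971), so it did not pass after adjustment. The A1 and C differences, -61.6 and -19.1, were not shown to differ (exact permutation p = 0.205). Joins with neither overlap nor insertion were 38.0% in restored A1 and 39.8% in restored C, and ran from 0% to 38.5% in Lig4-/- A1 and from 0% to 100% in Lig4-/- C (average difference 14.4 percentage points, exact permutation p = 0.375). The 38.5% comes from the library with 21 joins matching a WT A library of its run, and the 100% from the library with 3 reads of 1 distinct join. Without the latter library the difference was 30.3 percentage points (exact permutation p = 0.015).

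The microhomology share of restored A1 lay above those of restored C and WT A. It was 3.49% ± 0.90, against 1.31% ± 0.022 in restored C and 0.779% ± 0.046 in WT A, without overlap with either (2.71 percentage points above WT A; exact permutation p = 0.1, adjusted p = 0.189). Any overlap, of 1 bp or more, was in 10.5% ± 1.8 of restored A1 joins, 6.57% ± 0.62 of restored C joins and 3.67% ± 0.25 of WT A joins. Overlaps of 3 bp were in 0.505% ± 0.21, 0.171% ± 0.028 and 0.0758% ± 0.024. In restored A1, joins with an overlap of 2 bp or more had a median Jk1 loss of 4 bp in each library, and in restored C and WT A of 0 bp.

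**Figure D3:**
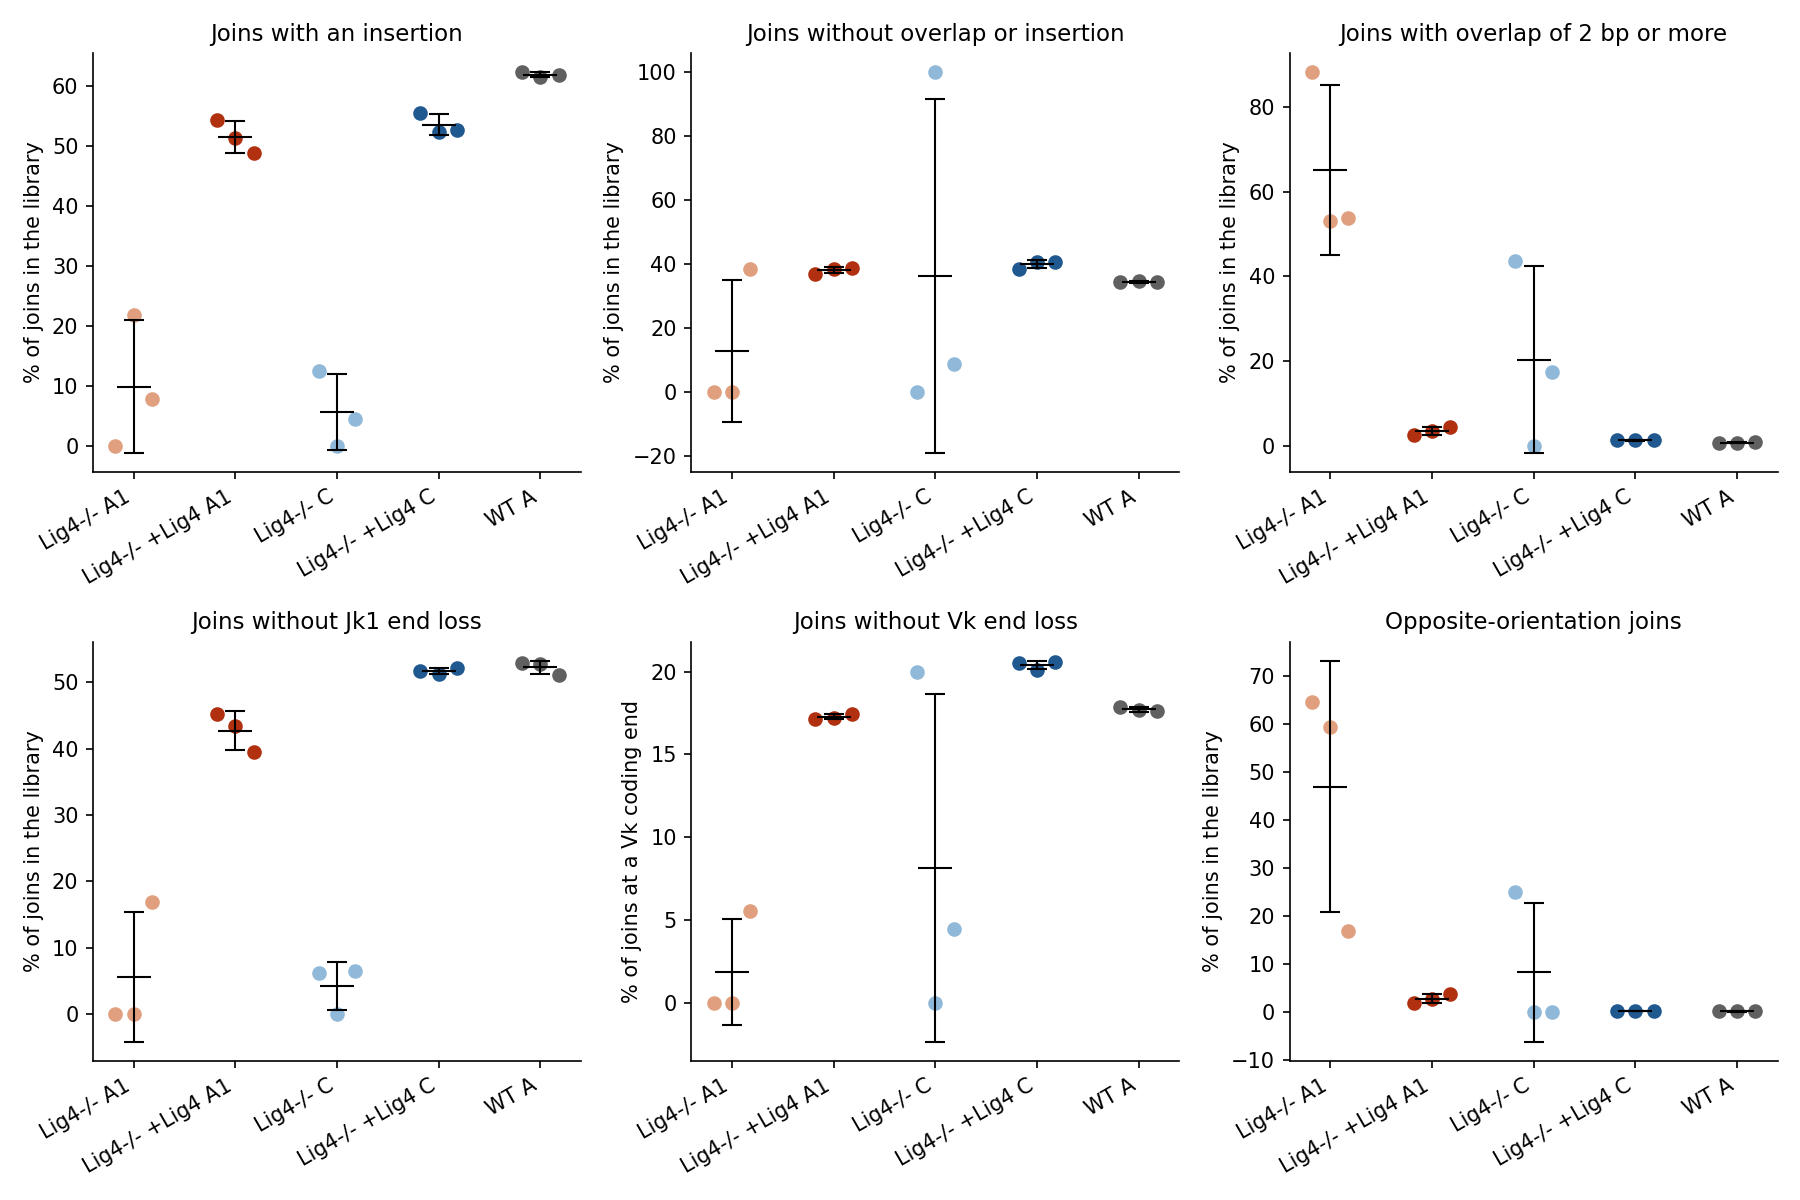
Properties of the joins in each library (points; 3 libraries per group, lines are mean ± 1 SD, which can run below 0 for the small Lig4-/- libraries). Insertions and whole Jk1 ends are more frequent in both restored groups than in their Lig4-/- groups, and the restored A1 points for a whole Jk1 end, 39.5% to 45.3%, lie below those of restored C and WT A.

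Most restored joins used the coding end in the direction that makes a coding join, but a small class ran the other way. These opposite-orientation joins read on the strand opposite to that of a coding join, within 100 bp of the Vk coding end. Most lay past the Vk cut, on the side of the RSS: 974 of 1044 in restored A1, 215 of 271 in restored C, 344 of 400 in WT A, and all 41 in Lig4-/- A1 and all 4 in Lig4-/- C. The others lay at the cut or on its coding side. A coding end sealed to a signal end is known as a hybrid joint. This measure was defined after seeing the data and stands outside the adjusted family. Lig4-/- A1 libraries had 11 of 17, 19 of 32 and 11 of 65 joins of this class (64.7%, 59.4% and 16.9%), and Lig4-/- C libraries 4 of 16, 0 of 3 and 0 of 46. Restored A1 libraries had 1.98%, 2.80% and 3.82%, restored C libraries 0.359%, 0.321% and 0.305%, and WT A libraries 0.204%, 0.221% and 0.356%. The average difference of -26.1 percentage points gave exact permutation p = 0.05 and did not pass. It was -28.2 (exact permutation p = 0.02) without either of the Lig4-/- C libraries that had none. In A1 alone the groups did not overlap. Restored A1 stayed 2.61 percentage points above WT A and 2.54 above restored C, without overlap (exact permutation p = 0.1 for both).

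Reads of this class run toward the RSS side by definition, and coding-orientation reads run into the Vk segment. The RSS letters below therefore describe where the reads lie and give no separate support for the class. The consensus nonamer ACAAAAACC was searched on both strands in the first 50 bases of Vk-side reads at least that long. It was in 318 of 948 opposite-orientation joins of restored A1 (33.5%, Wilson 95% interval 30.6% to 36.6%), 77 of 256 of restored C (30.1%), 18 of 40 of Lig4-/- A1 (45.0%) and 136 of 350 of WT A (38.9%). In coding-orientation joins it was in 0 of 31077 for restored A1, which allows up to 0.00965%, and in 0 of 74287, 0 of 66 and 0 of 143551 for the others. The whole heptamer CACAGTG, the RSS letters nearest the cut, was in 188 of 948 opposite-orientation joins of restored A1 (19.8%), 120 of 256 of restored C (46.9%), 163 of 350 of WT A (46.6%) and 0 of 40 of Lig4-/- A1, which allows up to 7.5%. These letters were also in coding-orientation joins, 102 of 31077 in restored A1 (0.328%), 134 of 74287 in restored C (0.180%), 1162 of 143551 in WT A (0.809%) and 8 of 66 in Lig4-/- A1 (12.1%). The printed Lig4-/- A1 joins of Igkv19-93 and Igkv3-4 begin inside that heptamer and carry the nonamer. The printed restored A1 join of Igkv4-50 has lost more of the heptamer and carries the nonamer too. Lig4-/- A1 reads of this class repeat a few exact joins: Igkv3-4 gave 8 reads, Igkv19-93 gave 6 and Igkv1-117 gave 5. The Lig4-/- A1 shares and limit count such reads singly, so they are less precise than they look.

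The structure of these joins in restored A1 is given here without a test. They sat at the first base past the Vk cut in 152 of 1044 cases, a mean of 15.4% ± 3.0, against 27.7% ± 2.8 in restored C and 36.1% ± 5.1 in WT A, and in 0 of 41 cases in Lig4-/- A1. The Jk1 end was whole in 15.4% ± 2.9 of them in restored A1, 46.2% ± 2.7 in restored C and 62.3% ± 5.4 in WT A. An overlap of 2 bp or more was in 23.8% ± 3.1 of them in restored A1, against 2.88% ± 0.76 of its coding-orientation joins. Even among coding-orientation joins, restored A1 had a whole Jk1 end in 43.5% ± 2.7, restored C in 51.7% ± 0.47 and WT A in 52.3% ± 0.97. Igkv12-44 (80 joins), Igkv6-32 (61) and Igkv4-51 (55) gave the most opposite-orientation joins of restored A1.

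The balance of inversion and deletion was not shown to change with Lig4. Inversion was scored by the strand of the Vk-side read over all joins. Opposite-orientation joins read on the other strand than a coding join of the same segment. They made up 64.7%, 59.4% and 16.9% of the Lig4-/- A1 libraries, so the shares there mix both classes. Their part in the inversion shares was not tested. Inversion made 69.3%, 68.1% and 67.0% of restored A1 joins and 66.4%, 66.8% and 66.5% of restored C joins. Lig4-/- A1 had 23.5%, 50.0% and 56.9%, and Lig4-/- C 50.0%, 100% and 41.3% (average difference 13.7 percentage points, exact permutation p = 0.235, adjusted p = 0.4). Without the Lig4-/- C library of 3 reads of 1 distinct join, made by inversion, the difference was 22.8 percentage points (exact permutation p = 0.005). WT A had 64.2% by inversion, and restored A1 did not differ from it beyond the spread (exact permutation p = 0.4). Joins over 1.5 Mb from Jk1 made 39.5% in restored A1, 39.3% in restored C and 38.1% in WT A, and 36.8% and 36.1% in Lig4-/- A1 and C (exact permutation p = 0.8 for the add-back).

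Lig4 add-back brought back a wide Vk repertoire. The reference lists 162 Vk segments (102 genes and 60 pseudogenes, RefSeq GRCm38.p6). Restored A1 joined 118 of them, restored C 122 and WT A 125, whereas Lig4-/- A1 joined 27 and Lig4-/- C 17, all counted in coding orientation. By library, Lig4-/- A1 joined 2, 6 and 24 segments. The library with 24 is the third, where 21 of 65 joins matched the WT A library of its run. Only the 125 segments with a WT A join, which set the orientation, could be assigned. No group could therefore exceed WT A, and these counts cannot compare its breadth with that of the others. Of the segments joined, 74 lie in the orientation that needs inversion and 51 in the one that needs deletion. The number of segments follows the number of joins, and was not tested.

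The 10 leading segments took 30.7% ± 0.41 of assigned joins in restored A1, 31.2% ± 0.51 in restored C and 28.5% ± 1.2 in WT A. Igkv12-44 (chr6:69814631-69815100) led restored A1 with 4.64%, 5.05% and 4.71%, against 2.98%, 4.22% and 4.03% in restored C and 4.79%, 3.45% and 3.52% in WT A. Igkv6-32 led restored C with 4.27%, 4.55% and 4.93%, and gave 3.29%, 2.84% and 3.07% in restored A1. The others were Igkv4-50, Igkv19-93, Igkv1-117, Igkv1-135, Igkv8-21, Igkv8-30, Igkv4-80 and Igkv4-54, with means of 1.69% to 3.83% in restored A1 and 1.71% to 4.52% in restored C. Of these 10, Igkv1-117 and Igkv1-135 are joined by deletion and the other 8 by inversion.

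Segment usage was compared with limma on the log2 share of assigned joins, with Benjamini-Hochberg adjustment over all segments tested. limma draws the variance of each segment toward a trend shared by all segments. Against WT A the SE was 0.186 for Igkv3-10, Igkv4-50 and Igkv8-30 alike. The limma SE and p therefore do not measure the library spread of a single segment. WT A replicates 2 and 3 also differed from each other in segment usage, counted in reads (chi-square p = 3.7e-195). A segment was called at adjusted p under 0.05 and a 1.5-fold change. Between restored A1 and WT A, 13 of 102 segments (12.7% called higher) had a higher share in restored A1 and 10 (9.8% called lower) a lower share, 22.5% in all. The count was 11 without the second restored A1 library (2 higher, 9 lower) and 11 without the third (3 higher, 8 lower). It was 15 without the third WT A library (8 higher, 7 lower). With distinct joins, 7 of 96 segments were higher and 10 lower. The higher calls were thus less stable than the lower ones. The largest lower calls were Igkv3-1, Igkv6-29, Igkv4-75, Igkv3-10 and Igkv6-20. Igkv3-10 took 2.02%, 1.99% and 1.91% in restored A1 and 3.34%, 6.49% and 6.52% in WT A (log2 change -1.41 ± 0.19, SE, limma adjusted p = 1.42e-11). Igkv3-1, the Vk segment nearest to Jk1 (0.0184 Mb), took 0.286% ± 0.049 against 1.26% ± 0.33 (log2 change -2.10 ± 0.23, limma adjusted p = 7.32e-16). The largest higher calls were Igkv4-90, Igkv5-48, Igkv12-40, Igkv5-39 and Igkv14-126. Igkv5-39 took 1.24%, 1.33% and 1.23% in restored A1 and 0.570%, 0.599% and 0.851% in WT A (log2 change 0.93 ± 0.21, limma adjusted p = 2.37e-04). Igkv4-90, at 1.72 ± 0.68, had few joins and did not pass with distinct joins (0.80, limma adjusted p = 0.171).

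The restored clones differed from each other in more segments. Between restored A1 and restored C, 21 of 99 segments (21.2% called higher) were higher in A1 and 19 (19.2% called lower) were lower, 40.4% in all, and clone cannot be told apart from run and raw-read number here. The largest lower calls were Igkv1-122, Igkv3-3, Igkv6-14, Igkv1-88 and Igkv8-18. Igkv1-122 took 0.108%, 0.0778% and 0.0987% in restored A1 and 0.638%, 0.673% and 0.721% in restored C (log2 change -2.79 ± 0.26, limma adjusted p = 9.9e-22). The largest higher calls were Igkv4-83, Igkv14-130, Igkv11-125, Igkv11-106 and Igkv14-126. Igkv11-125 took 2.30%, 2.40% and 2.79% in restored A1 and 0.647%, 0.697% and 0.850% in restored C (log2 change 1.77 ± 0.13, limma adjusted p = 2.63e-32). Counting distinct joins left 26 calls. Reads of near-identical Vk segments can be split between copies by the mapping, which was not tested.

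**Figure D4:**
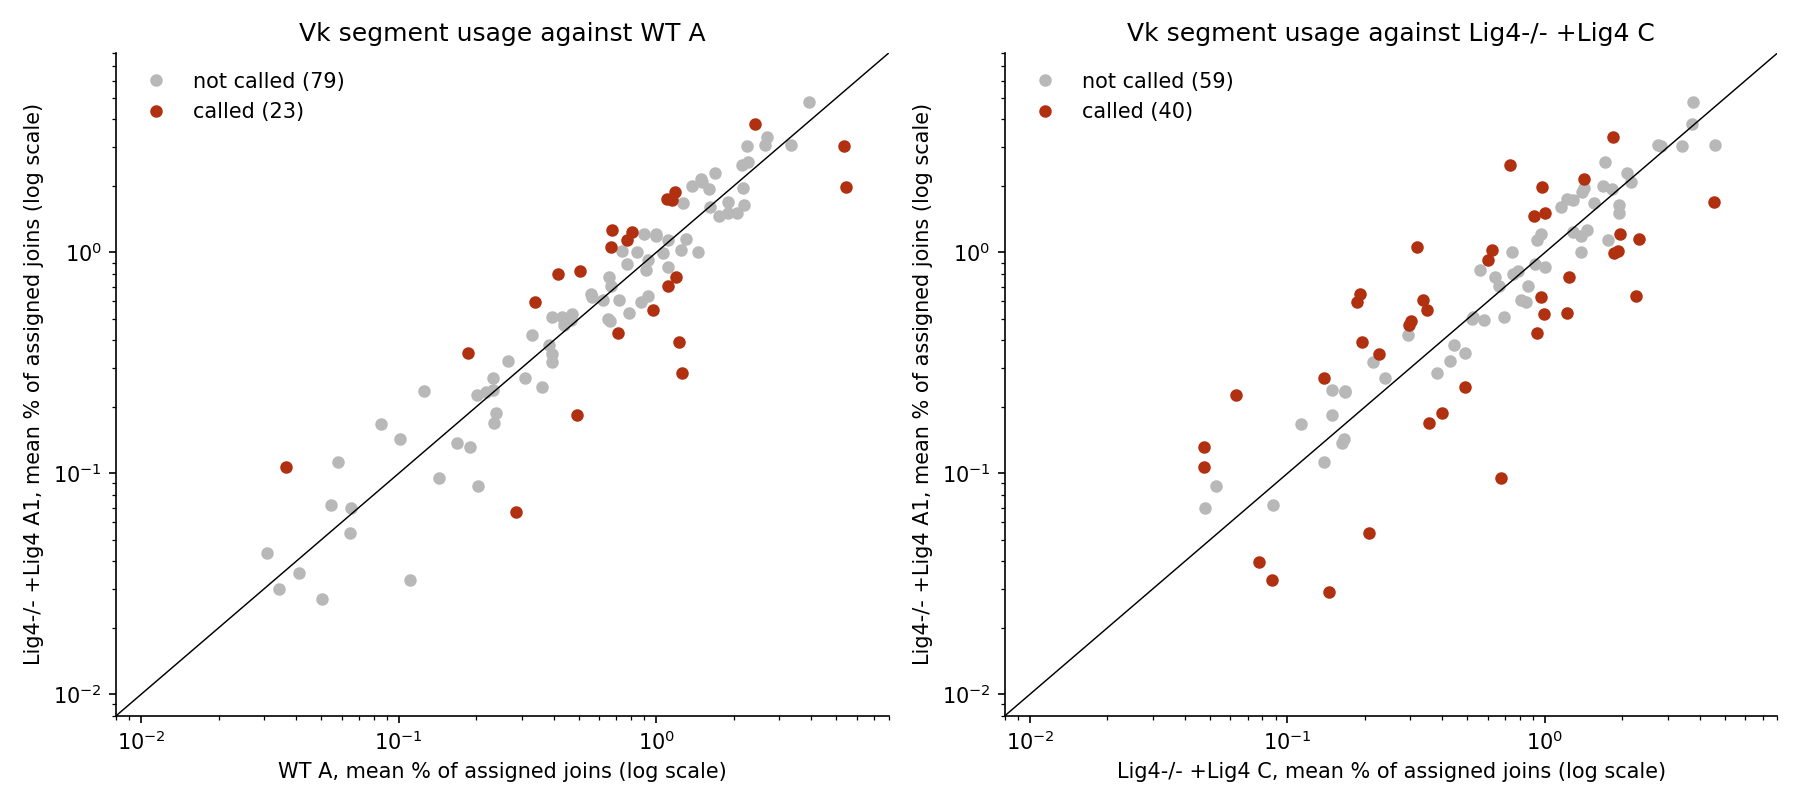
Mean % of assigned joins per Vk segment in restored A1 (vertical) against WT A (left) and restored C (right), both axes logarithmic, 1 point per segment tested; the line marks equal shares and red points were called. There are 23 red points of 102 on the left and 40 of 99 on the right.

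Families with at least 5 tested members were described, a limit set after seeing the data. Against WT A, where 12.7% of all segments were higher and 9.8% lower in restored A1, 5 of 28 members of Igkv4, the largest family, were higher and 4 lower (median log2 change 0.01). In Igkv3, 3 of 9 were lower and 0 higher (median -0.53), and in Igkv6, 2 of 8 were lower and 0 higher (median -0.10). In Igkv5, 2 of 5 were higher and 0 lower (median 0.82), and in Igkv12, 2 of 7 were higher and 0 lower (median 0.30). In Igkv1, 1 of 8 was lower and 0 higher, and in Igkv8, 0 of 10 were called. The smaller families held 27 tested members, 4 higher and 0 lower. The median over all 102 segments was 0.09. As given above, the higher calls against WT A were less stable than the lower ones. Igkv4 took 37.0% ± 0.57 of assigned joins in restored A1, 31.7% ± 1.7 in restored C and 35.8% ± 4.9 in WT A, and Igkv3 took 6.61% ± 0.15, 8.93% ± 0.62 and 12.3% ± 2.7.

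Against restored C, where 21.2% of all segments were higher and 19.2% lower, 9 of 28 Igkv4 members were higher and 1 lower (35.7% called, against 40.4% of all segments). In Igkv3, 5 of 8 were lower and 1 higher, in Igkv1, 4 of 8 were lower and 0 higher, and in Igkv6, 2 of 7 were lower and 0 higher. In Igkv8, 3 of 10 were higher and 3 lower, and 0 of 5 Igkv5 and 0 of 7 Igkv12 members were called. The smaller families held 26 tested members, 8 higher and 4 lower. Segments that RefSeq calls pseudogenes took 7.10% ± 0.23 of assigned joins in restored A1, 5.43% ± 0.41 in restored C and 6.58% ± 0.44 in WT A.

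Without Lig4, a few exact joins made up much of what was read. Lig4-/- A1 held 52 distinct joins, 19 of which were also in restored A1, and Lig4-/- C held 24, of which 5 were in restored C. Among the 19 were the 14 distinct joins that the third Lig4-/- A1 library had in common with the WT A library of its run. Of all these Lig4-/- joins, 6 were in 2 or more Lig4-/- libraries, and 0 were in both clones. The Igkv19-93 join printed above was in all 3 Lig4-/- A1 libraries with 6 joins, and a join of Igkv6-32 to its RSS side with an overlap of 6 bases (GCCTCC) was in all 3 with 4 joins; both were in 0 restored and 0 WT A joins. The Igkv6-32 coding-orientation join was in 2 libraries with 8 joins, the Igkv3-4 join in 2 with 8 joins, and the Igkv3-12 join in 2 with 3 joins. The Igkv3-4 join was also read in the first restored A1 library, with 1 join, and the other 2 were in 0 restored joins. The Igkv2-112 join was in 2 Lig4-/- C libraries with 22 joins and in 0 restored joins. All 6 recurrent joins had lost at least 6 bases of Jk1 and had an overlap of 1 to 6 bases.

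Restored joins also recurred between libraries. Of 15562 distinct joins in restored A1, 1385 (8.90%) were in all 3 libraries, and of 23276 in restored C, 2909 (12.5%), against 2299 of 28446 (8.08%) in WT A. The join that led the restored libraries was the Igkv16-104 join with an overlap of 2 bases, at 0.442%, 0.407% and 0.336% of joins in restored A1, and 0.357%, 0.306% and 0.285% in restored C. The Igkv12-44 join with a single added G was next, at 0.371%, 0.378% and 0.343% in restored A1. In coding orientation, the segments found in Lig4-/- libraries of both clones were Igkv1-117, Igkv19-93, Igkv4-57, Igkv12-44, Igkv6-25 and Igkv3-12, with 1 to 4 such joins each in a clone. For Igkv1-117, Igkv19-93, Igkv12-44 and Igkv6-25, all such A1 joins came from the third Lig4-/- A1 library. Each had the structure of a join in the WT A library of its run, and those of Igkv4-57 and Igkv3-12 did not. Counting both orientations added Igkv1-135 (5 joins in A1 and 2 in C) and Igkv16-104 (2 and 1), and gave Igkv19-93 10 joins and Igkv1-117 9 joins in A1.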

How the data were processed

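Libraries followed a published LAM-HTGTS protocol without its enzyme blocking step, and the authors listed junctions with the LAM-HTGTS pipeline, per the labels' protocols and characteristics. The submitters' processing notes name Bowtie2, with no version, and mm10. The deposited lists hold positions in other units than counts or signal: 1 row per read, with genome and read positions of bait and prey. Rows were counted as deposited (3 to 53074 per library used). Vk segments were assigned from RefSeq GRCm38.p6, the same build, within 100 bp of the coding end; a segment's orientation was its WT A majority. For 4 segments whose annotated end lay off the joins, Vk loss was not counted.

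Groups came from the titles, with the library as replicate. Measures were compared by two-sided exact permutation tests (scipy 1.17.1), within clones where 2 clones carried the contrast, with Benjamini-Hochberg adjustment over 34 tests. Segment shares were tested with limma 3.58.1 (R 4.3.3; at least 10 joins in at least 3 of 6 libraries, prior of 0.5 joins, trended prior variance). Both were tested on simulated data. Named segments were the 10 with the largest restored share, the 5 largest called changes in each direction and those in Lig4-/- libraries of both clones; families followed RefSeq symbols. Restored C replicates 2 and 3 did not differ in joint structure (chi-square p = 0.256) but did in segment usage (chi-square p = 4.7e-06), shared no read name, and were kept apart. The members and lists were chosen with earlier results of these data known. Alternatives tried included distinct joins, other overlap, window and distance limits, priors, small libraries left out, each replicate left out and a replicate block. Expression of Lig4 was not analysed here.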

Additional observations from a re-analysis of the deposited data

How the results depend on the processing

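Of 509 recomputed values, 478 were scored as unchanged. For the measures this meant the same direction and the same side of the 0.05 threshold. For segment usage it meant a number of calls within 1.5-fold of the main number. In the measures of restored A1 against WT A the exact permutation p cannot fall below 0.1. Only the direction could change there, so the count is no gauge of how firm those differences are. Same-numbered libraries deviated together in clone C (correlations 0.835, 0.964 and 0.123) but not in clone A1 (-0.585, -0.267 and 0.0449), so the numbers were not taken to pair the libraries of the add-back comparison; against WT A the correlations were 0.494, -0.236 and 0.46. The replicate block weakened the microhomology difference (-40.3 percentage points, exact sign-flip p = 0.0625) and changed no other call. The direct join difference turned to -6.46 with distinct joins and passed, at 30.3 percentage points, without libraries of under 10 joins. Leaving those out also gave 22.8 for inversion, -6.04 for joins over 1.5 Mb and -28.2 for opposite-orientation joins; a limit of 2 Mb gave -5.72. The insertion length difference passed with distinct joins (-2.65 bases), distinct fragments (-3.00) and without joins shared with the WT A library of the same run (-2.81), the last 2 settings chosen after seeing the data. Vk ends within 30 bp gave 9.89 percentage points and -8.83 bp, which missed the threshold. Inversion in restored A1 against WT A was -0.0511 with distinct joins. Segment calls between restored clones numbered 26 with distinct joins. The causes were not tested. Leaving out 1 library at a time gave 5.34 to 30.3 for direct joins, -4.62 to -0.874 for insertion length, -28.6 to -13.8 bp for median Jk1 loss, 8.10 to 22.8 for inversion, -6.04 to 9.58 for joins over 1.5 Mb, -33.6 to -21.6 for opposite-orientation joins and 11 to 25 segment calls against WT A. For differences between clones it gave -10.3 to 39.7 for direct joins, 1.73 to 9.23 for insertion length, -2.76 to 7.24 for whole Vk ends and -13.8 to 17.5 for joins over 1.5 Mb. The Lig4-/- libraries held 3 to 65 joins each, which limits the precision of their shares.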
